A study of Parasteatoda tepidariorum with 20 samples.

Results

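Solute carriers of the spider *Parasteatoda tepidariorum* were followed through embryonic development as the gene models whose description names a solute carrier family or a solute carrier organic anion transporter family. This rule took 93 of the 27990 AUGUSTUS gene models in the data table, and they carry 76 gene IDs. RNA-Seq was performed with poly(A) mRNA of whole embryos of the isolate Osaka, pooled at each stage and kept at 25 °C. Samples were taken, in hours after egg laying, at stage (st) 1 (9 h, 16 cells), st2 (15 h, 256 cells), st3 (20 or 21 h), st4 (25 or 26 h), early st5 (31 or 32 h), late st5 (36 or 37 h), st6 (42 or 43 h), st7 (50 h), st8 (60 h) and st10 (78 h). There were 2 series, and a different pair of parents gave the embryos of each, so every stage had 2 of the 20 samples. The labels name no treatment. Abundance is the deposited RPKM, the reads on a gene model scaled to its exon length and to the size of the library. Values of both series are given with series 1 before series 2, and an error after ± is the SD of the 2 (n = 2).

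Solute carriers are membrane proteins that move small molecules across the plasma membrane and the membranes of organelles, along a gradient or coupled to an ion. They are grouped into numbered families by sequence. Family 25 holds the carriers of the mitochondrial inner membrane, family 35 the nucleotide-sugar transporters of the Golgi and endoplasmic reticulum and their relatives, family 2 the facilitative sugar transporters, family 12 the cation-chloride cotransporters, family 13 the sodium-coupled carboxylate and sulfate transporters and family 41 the magnesium transporters. The organic anion transporters carry bulky organic anions such as steroid conjugates and prostaglandins in vertebrates. The early embryo of an animal runs on RNA laid down by the mother until its own genome is transcribed.

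The read totals behind the RPKM values ranged from 9160802 to 17019009 per sample. At the median exon length of the members, 1756 bp, 3 reads corresponded to 0.1 to 0.186 RPKM, which covers counting error only. The st6 sample of series 2 stood apart. There 92.8% of its reads lay on gene models, against 77.5% to 88.5% in the other samples. Of the 61 members tested, 50 were lower in it than in the st6 sample of series 1, with a median difference of -0.47 on the log2 scale, against -0.35 over all gene models tested. At the other stages this median lay between -0.07 and 0.11 for the members. Whole embryos were sampled, so fewer cells of a type and less RNA per cell cannot be told apart.

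A member was called maternal when it had at least 1 RPKM in both st1 samples, and 43 of the 93 (46.2%) were, against 36.1% of all gene models. Among those that passed the filter for testing the order turned round, with 43 of 61 members (70.5%) and 75.6% of all gene models tested. It was called later when it was under 1 RPKM in both st1 samples and at 1 RPKM or more in both samples of some later stage, and 11 (11.8%) were, against 7.05% of all gene models, or 18.0% of the members tested and 14.8% of all tested. A further 7 reached 1 RPKM in at least 2 samples without meeting either description, here called unsettled, and 32 (34.4%) were low, against 52.2% of all gene models. The 32 low members, which were not tested, never passed 1.33 RPKM, and 4 of them were listed at 0 in all samples. In stage order, 43, 46, 42, 26, 31, 36, 34, 38, 42 and 42 members were at 1 RPKM or more in both series, so the number was lowest at st4. All gene models were counted per sample, and 11117 and 11128 were at 1 RPKM or more at st3. At st4 10353 and 10271 were, and at st10 10978 and 10983. The lowest count of any sample was 9820, in the st6 sample of series 2.

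**Figure D1:**
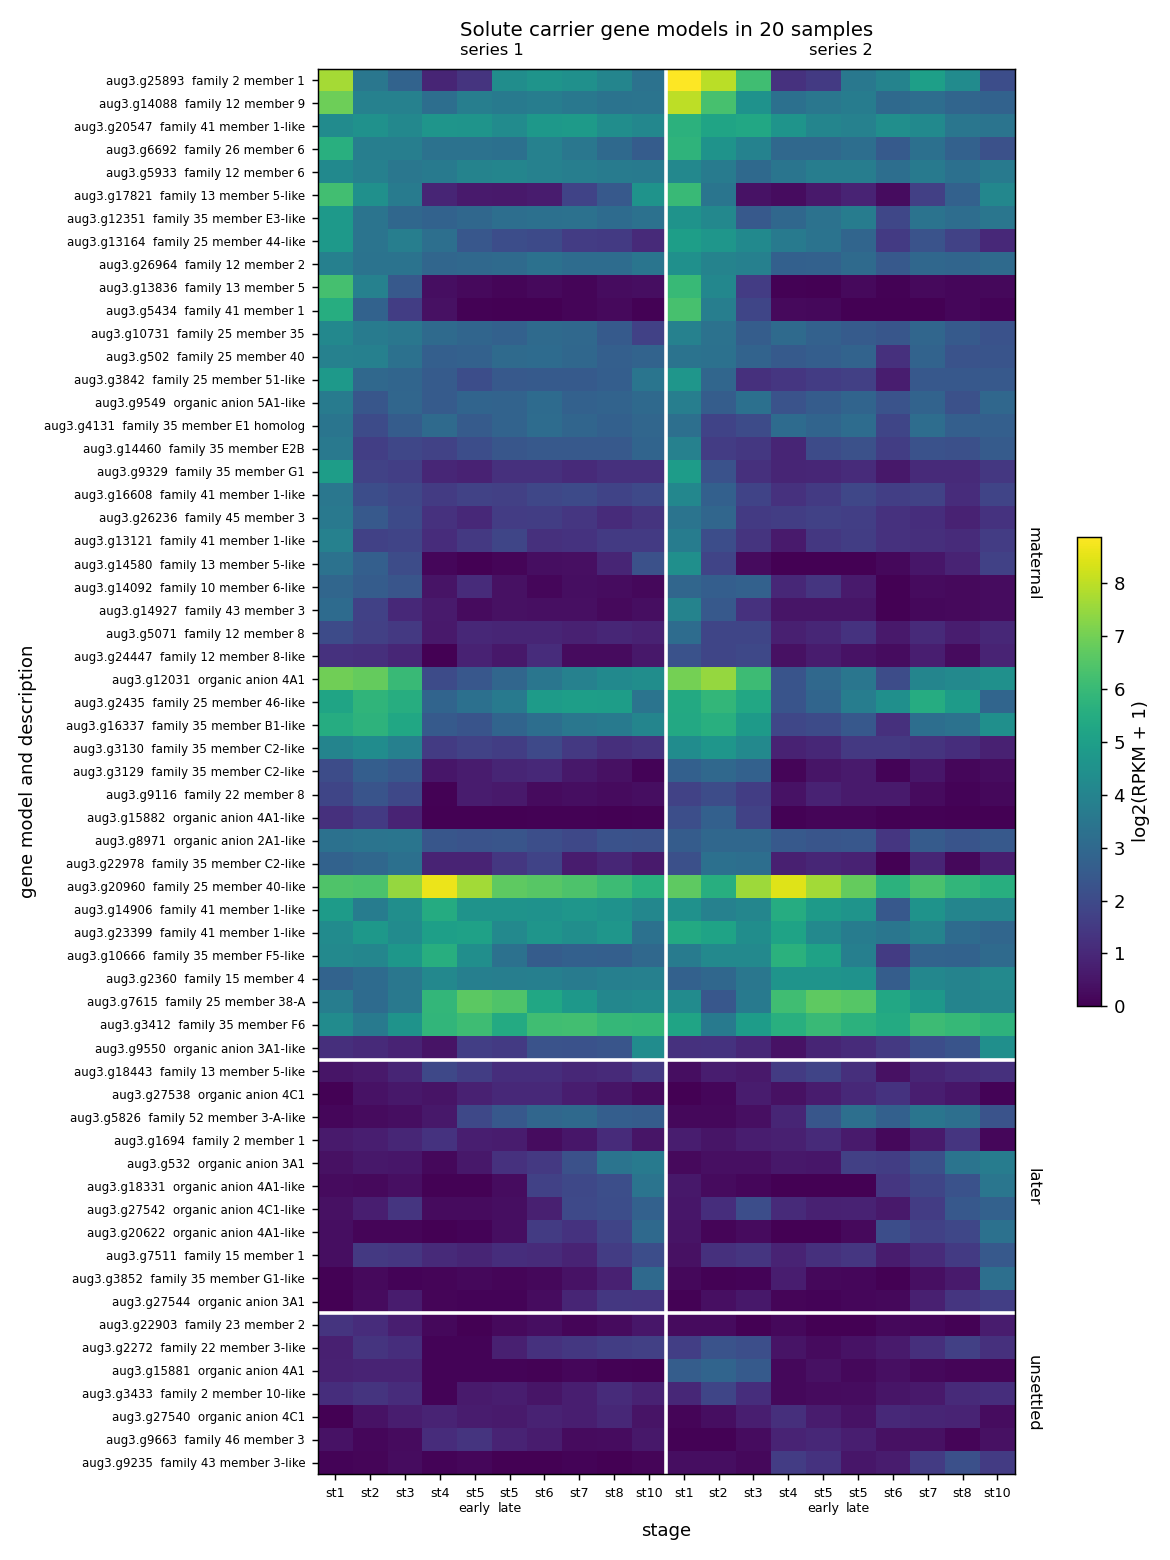
Abundance of the 61 tested solute carrier gene models, as log2(RPKM + 1), with 1 column per sample in stage order for series 1 and series 2 and 1 row per gene model, in blocks of 43 maternal, 11 later and 7 unsettled members. Most maternal rows are brightest at st1 and darken by st4, while most later rows brighten towards st10. The blocks were set by values at st1, so these courses are partly set by the choice.

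The highest mean of the 43 maternal members was at st1 for 26 and at st2 for 7. For 2 of them it was at st3, for 5 at st4 and for 3 at a later stage. Their lowest mean was at st4 for 11 and at st10 for 9. At every stage 23 of them stayed at 1 RPKM or more in both series. At st4 14 were under 1 RPKM in both series, and 4 of these were back at 1 RPKM or more in both series at st10. The st10 mean was above the st1 mean in 4 of the 43. Of the 11 later members, 7 had their highest mean at st10. Both classes were set by values at st1, so a peak there or a later rise is partly set by the choice. These peaks were not counted over all maternal or later gene models. The peak fell at the same stage in both series in 48 of the 61 tested members.

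The families differed in how many members were present at the start. All 7 members of family 25 and 10 of 13 in family 35 were maternal, as were 6 of 8 in family 41 and 5 of 10 in family 12. Members are gene models, and the 8 of family 41 carry 4 gene IDs and the 10 of family 12 carry 8. The organic anion transporters, the largest family with 17 members, had 5 maternal and 6 later members, so they held 6 of the 11 later ones. These 17 gene models carry 13 gene IDs. The later members aug3.g18331 and aug3.g20622 share 1 gene ID, so the 11 later members carry 10. In family 13, 3 of 11 members were maternal and 7 low. In family 22, which carries organic cations, organic anions and carnitine, 6 of 8 were low and 1 was maternal. These counts are a description of small families and were not tested against each other.

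**Figure D2:**
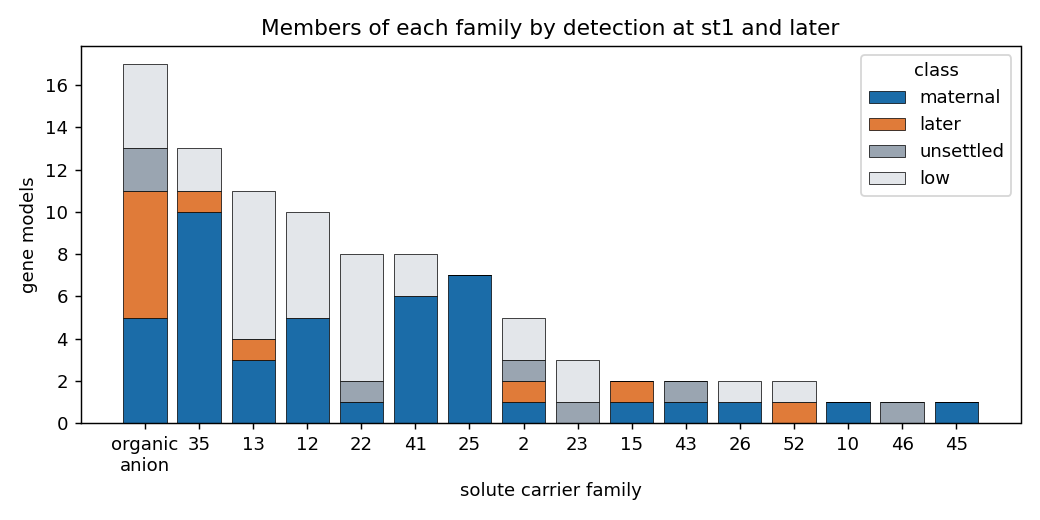
Number of gene models in each of the 16 solute carrier families, on the y axis, split by detection at st1 and later. The organic anion transporters have 17 members with 5 maternal and 6 later, and all 7 members of family 25 are maternal.

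Summed over the members, with gene models of 1 gene ID averaged first, the abundance in stage order was 1409, 783.7, 639.2, 703.5, 567.2, 452.2, 360, 434.4, 372.1 and 380.1 RPKM, as means of the 2 series. The SD was 16.8 RPKM for the st10 mean and 338.4 RPKM for the st1 mean. The sum of family 25 went another way from the total. It was 228.4 ± 14.4 RPKM at st1, 463.6 ± 22.02 RPKM at st4 and 88.8 ± 9.34 RPKM at st10. At st4 it was led by aug3.g20960, with a mean of 368.8 RPKM. In the limma fit described below, 4 of the 7 members were called lower at st4 than at st1 and 2 higher. Over all gene models tested 39.6% were lower and 20.3% higher. The organic anion transporters summed to 152.7 ± 5.1 RPKM at st1, 14.9 ± 1.0 RPKM at st4 and 77.3 ± 4.17 RPKM at st10, so their sum was lowest at st4. Family 13 summed to 110.9 ± 8.92 RPKM at st1, 3.87 ± 0.896 RPKM at st4 and 14.4 ± 2.58 RPKM at st10. Family 35 changed least among these, with 185.1 ± 4.97 RPKM at st1, 122.4 ± 5.33 RPKM at st4 and 112.6 ± 0.0822 RPKM at st10. A sum is led by its most abundant members, and these sums were not tested.

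Stages were compared with limma on log2(RPKM + 1) in 1 fit of the 10 stage means, and a gene model was called changed at a Benjamini-Hochberg adjusted p under 0.05 over the 13375 tested. On this scale the changes of low gene models come out too small. Across the 10 stages 55 of the 61 members were called, against 79.8% of all gene models tested. The 6 not called were aug3.g5933, aug3.g22903, aug3.g502, aug3.g20547, aug3.g23399 and aug3.g9235. Of these aug3.g5933, family 12 member 6, whose human namesake exports potassium with chloride, had 17.4 and 16.6 RPKM at st1, 11.3 and 9.87 RPKM at st4 and 11.5 and 11.4 RPKM at st10. Between st10 and st1, 47 members were called, against 58.2% of all, with 12 higher (23.2% of all) and 35 lower (34.9% of all) at st10. The median change was -1.03 for the members and -0.24 for all gene models tested. Between st4 and st1, 45 were called, against 59.9% of all, with 10 higher (20.3% of all) and 35 lower (39.6% of all) at st4, and the medians were -1.03 and -0.39. With median-ratio scaling between samples, the medians were -0.76 for the members and 0.01 for all gene models at st10 against st1, and -0.74 for the members and -0.01 for all at st4 against st1. With this scaling 39 members were called at st10 against st1, 12 higher and 27 lower, against 28.7% of all gene models higher and 29.3% lower.

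**Figure D3:**
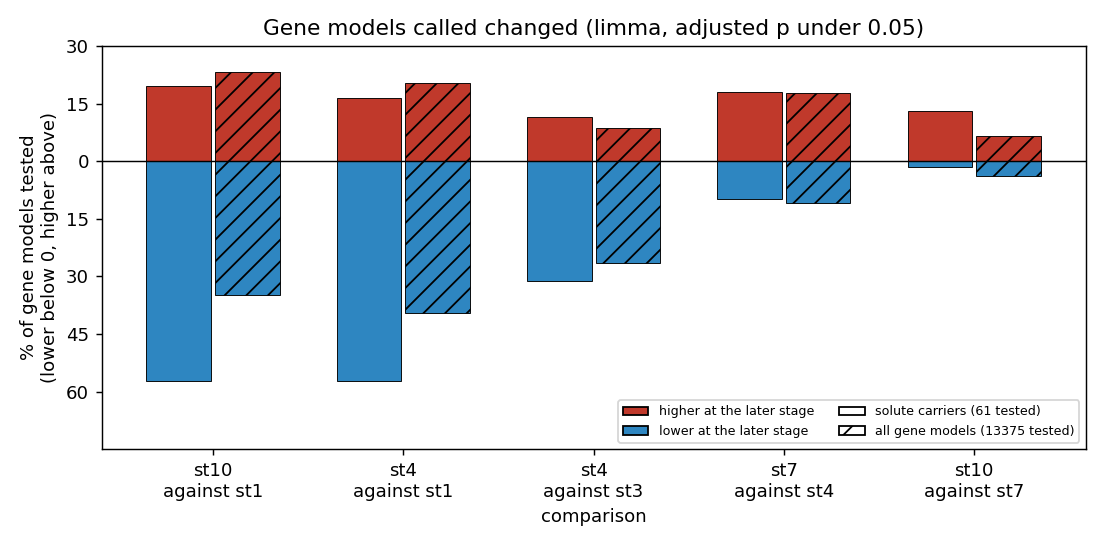
Share of gene models called higher (above 0) or lower (below 0) at the later stage of 5 comparisons, in percent of those tested, for the 61 solute carriers (plain bars) and all 13375 gene models (hatched bars). At st10 against st1, 35 of 61 solute carriers were lower, against 34.9% of all gene models.

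A fall as large as those described next can be reached on this scale only by a member with a high value at st1. aug3.g25893, named facilitated glucose transporter member 1 of family 2 and located on scaffold 126 of Ptep_1.0, minus strand (bases 1182901 to 1248761), had 206.4 RPKM in series 1 at st1, where series 2 had 469.1 RPKM. At st2 it had 10.55 and 247.9 RPKM and at st3 6.05 and 69.8 RPKM, so the 2 series lay far apart while it declined. Both series were low at st4, at 0.909 and 1.43 RPKM. It then stood at 19.5 and 10.75 RPKM at st5 late, 20.9 and 31.4 RPKM at st7 and 9.2 and 3.28 RPKM at st10. At st4 it was lower than at st1 by a log2 change of -7.18 (standard error 1.13, limma adjusted p = 7.6e-05), and st7 was above st4 by 3.63 (adjusted p = 0.027). Its fall at st4 against st3, -3.37 with a limma adjusted p of 0.031, was no longer called without the st3 sample of series 2, where it was -1.71, nor without either st4 sample. The rise at st7 was likewise not called when any 1 of the st4 and st7 samples was left out, with log2 changes of 3.35 to 3.91.

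In a pair of maternal members no sample from st4 on held more than 14 reads. aug3.g5434, family 41 member 1, is related to a human magnesium transporter and lies on scaffold 650 (bases 50246 to 145534, minus strand). It had 44.9 and 77.5 RPKM at st1, 6.0 and 12.8 RPKM at st2, 2.06 and 2.62 RPKM at st3 and 0.319 and 0.176 RPKM at st4, and at st10 0.04 and 0.0692 RPKM. Its log2 change at st10 against st1 was -5.83 (standard error 0.29, limma adjusted p = 5.5e-10). aug3.g13836, family 13 member 5, whose human namesake carries citrate, lies on scaffold 1734 (bases 128846 to 186721, plus strand). It had 75.0 and 61.5 RPKM at st1, 13.8 and 16.1 RPKM at st2, 4.6 and 2.01 RPKM at st3, and 0.258 and 0.0474 RPKM at st4. At st10 its values were 0.264 and 0.13 RPKM, a log2 change of -5.85 against st1 (standard error 0.26, limma adjusted p = 1.5e-10). For both gene models only the 6 samples of st1 to st3 reached 1 RPKM, so they passed the filter for testing through these alone. They were also named for the size of their fall, so the falls and their p-values are partly set by the choice.

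Other maternal members fell early and kept a lower level. aug3.g14088, family 12 member 9, of the cation-chloride cotransporters, had 9.77 and 5.95 RPKM at st10, against 119.1 and 252.7 RPKM at st1 (log2 change -4.33, standard error 0.58, limma adjusted p = 1.8e-05). By st4 it was already at 8.33 and 8.65 RPKM. aug3.g9329, family 35 member G1, had 1.37 and 1.7 RPKM at st10, against 29.9 and 29.1 RPKM at st1, and stood at 2.38 and 3.75 RPKM by st2. Its log2 change was -3.59 (standard error 0.25, limma adjusted p = 2e-08). aug3.g13164, family 25 member 44-like, whose human namesake carries branched-chain amino acids into mitochondria, declined more slowly. It had 26.8 and 30.2 RPKM at st1, 8.47 and 11.2 RPKM at st4, 2.02 and 3.85 RPKM at st7 and 1.07 and 1.06 RPKM at st10. At st10 it was lower than at st1 by -3.84 on the log2 scale (standard error 0.43, limma adjusted p = 3e-06).

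aug3.g12031 was the most abundant organic anion transporter. It is named member 4A1, and its human namesake carries thyroid hormones, and it lies on scaffold 1415 (bases 18352 to 43704, minus strand). It had 124.3 and 130.4 RPKM at st1, 108.3 and 176.7 RPKM at st2, and 64.3 and 67.3 RPKM at st3. At st4 the values were 3.04 and 3.98 RPKM, a log2 change of -3.90 against st3 (standard error 0.38, limma adjusted p = 2.4e-06). It was higher again at st7, at 13.9 and 15.4 RPKM (1.80 against st4, standard error 0.38, limma adjusted p = 0.0027), and had 19.3 and 21.2 RPKM at st10. The 2 series did not overlap between st3 and st4, nor between st4 and st7.

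**Figure D4:**
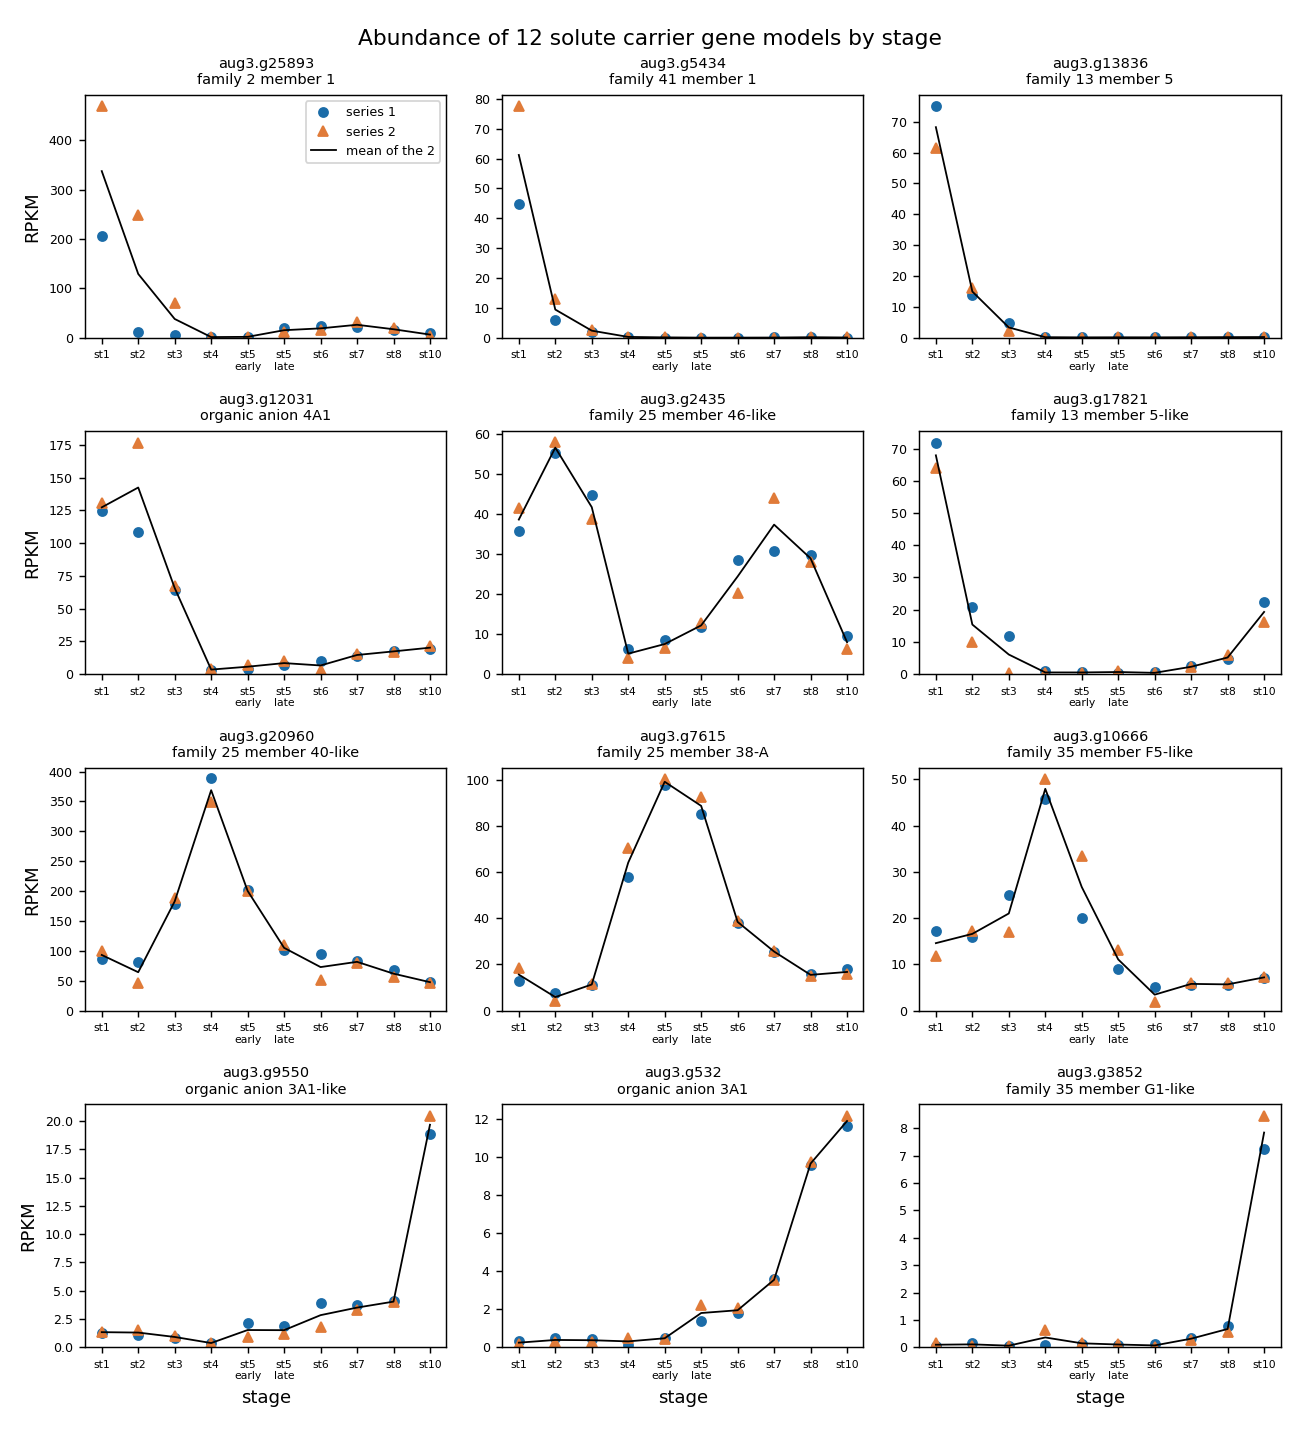
RPKM of 12 solute carrier gene models at the 10 stages, with series 1 as circles, series 2 as triangles and the mean of the 2 as a line, each panel on its own linear axis from 0. Panels of the first row fall from st1, those of the second row are low at st4 and higher later, those of the third row peak at st4 or st5 early, and those of the last row are highest at st10.

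The 7 mitochondrial carriers of family 25 did not move together. aug3.g20960, member 40-like, on scaffold 4374 (bases 56306 to 75334, plus strand), was among the 5 most abundant members over the 20 samples. Its human namesake is a relative of the mitochondrial glutathione importer. It had 85.8 and 100.6 RPKM at st1, 177.9 and 187.9 RPKM at st3, 389.1 and 348.6 RPKM at st4, 201.3 and 199.5 RPKM at st5 early and 48.6 and 46.8 RPKM at st10. At st4 it was above st1 by a log2 change of 1.97 (standard error 0.29, limma adjusted p = 3.6e-05), and st7 was below st4 by -2.16 (limma adjusted p = 6.9e-05). aug3.g7615, member 38-A, is named after a carrier that takes glycine into mitochondria for heme synthesis in yeast and vertebrates. It had 11.02 and 11.66 RPKM at st3, 57.6 and 70.5 RPKM at st4, 97.9 and 100.3 RPKM at st5 early, 85.0 and 92.3 RPKM at st5 late and 17.9 and 15.7 RPKM at st10. Its log2 change at st4 against st3 was 2.39 (standard error 0.24, limma adjusted p = 3.1e-06).

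aug3.g2435, member 46-like, showed the opposite course in the same window. The human namesake sits on mitochondria and takes part in their fission and fusion. It had 55.1 and 57.9 RPKM at st2, 44.7 and 38.6 RPKM at st3, 6.33 and 3.91 RPKM at st4, 30.6 and 44.0 RPKM at st7 and 9.59 and 6.38 RPKM at st10. The log2 changes were -2.83 at st4 against st3, 2.65 at st7 against st4 and -2.09 at st10 against st7, each with a standard error of 0.27 and limma adjusted p of 2.2e-06, 7e-06 and 8.8e-05. In the main fit it was the only one of the 61 members called lower at st10 against st7. The replicate block gave 3 members lower, and the fit without both st6 samples gave 5. aug3.g3842, member 51-like, whose human namesake carries NAD into mitochondria, had 9.81 and 4.6 RPKM at st10, against 26.6 and 24.5 RPKM at st1.

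In family 35, 2 of the 11 tested members were higher at st10 than at st1 and 8 were lower, where 23.2% of all gene models were higher and 34.9% lower. aug3.g3412, member F6, was the most abundant of them on average, at 18.5 and 34.9 RPKM at st1, 55.9 and 47.5 RPKM at st4, 72.4 and 66.1 RPKM at st7 and 57.5 and 52.2 RPKM at st10. It was called higher at st10 than at st1, by 1.08 on the log2 scale (standard error 0.29, limma adjusted p = 0.0053), but not without the st1 sample of series 1, where the change was 0.63. aug3.g10666, member F5-like, peaked at st4. It had 5.56 and 6.03 RPKM at st7, against 45.8 and 50.1 RPKM at st4, a log2 change of -2.85 (standard error 0.34, limma adjusted p = 2.7e-05). The 3 gene models named member C2-like, aug3.g3129, aug3.g3130 and aug3.g22978, and aug3.g16337, member B1-like, were picked out after their values were seen. All 4 fell at st4 against st3, by log2 changes of -2.26, -2.83, -2.39 and -2.89. aug3.g3130 had 1.93 and 0.783 RPKM at st4, against 13.6 and 17.2 RPKM at st3. aug3.g16337, whose human namesake exchanges ATP for ADP across the endoplasmic reticulum, had 4.66 and 2.68 RPKM at st4, against 38.5 and 27.9 RPKM at st3, and was at 15.5 and 20.7 RPKM at st10.

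Of the 13 organic anion transporters tested, 6 were higher and 4 lower at st10 than at st1, where 23.2% of all gene models were higher and 34.9% lower. The 6 include aug3.g18331 and aug3.g20622, which share 1 gene ID. The family was not tested against others. aug3.g532, member 3A1, on scaffold 254 (bases 74593 to 228994, minus strand), was under 0.5 RPKM in both series up to st5 early. It had 1.4 and 2.2 RPKM at st5 late, 3.57 and 3.53 RPKM at st7, 9.58 and 9.74 RPKM at st8 and 11.6 and 12.2 RPKM at st10. At st10 it was above st1 by a log2 change of 3.38 (standard error 0.21, limma adjusted p = 5.7e-09) and above st7 by 1.5 (limma adjusted p = 0.00018). aug3.g9550, member 3A1-like, on scaffold 1036 (bases 686448 to 779384, minus strand), counts as maternal because it had 1.27 and 1.39 RPKM at st1. It had 0.397 and 0.344 RPKM at st4, 4.07 and 3.99 RPKM at st8 and 18.9 and 20.5 RPKM at st10, and its log2 change at st10 against st1 was 3.15 (standard error 0.29, limma adjusted p = 3.6e-07).

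A pair of gene models with 1 gene ID, aug3.g18331 and aug3.g20622, both member 4A1-like, shared their course. They lie on scaffolds 2820 and 4003, and as they carry 1 ID they may be pieces of 1 gene and count as 1 observation. aug3.g18331 was at most 0.5015 RPKM up to st5 late and had 2.27 and 1.67 RPKM at st6, 3.41 and 3.68 RPKM at st8 and 9.79 and 10.3 RPKM at st10. aug3.g20622 had no read in either st4 sample, and at st7, with a mean of 1.9 RPKM, it was at least 8.26-fold higher than the abundance of 3 reads per sample. Their log2 changes at st10 against st1 were 3.04 and 2.79 (limma adjusted p = 6e-09 and 5.1e-08). aug3.g27542, member 4C1-like, had 0.32 and 0.452 RPKM at st1, 1.59 and 3.26 RPKM at st3, 0.212 and 1.06 RPKM at st4 and 5.68 RPKM in both series at st10. Its log2 change at st10 against st1 was 2.27 (standard error 0.32, limma adjusted p = 3e-05).

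Outside the organic anion transporters, the sharpest late rise was that of aug3.g3852, family 35 member G1-like. It stayed under 0.8 RPKM up to st8 and had 7.24 and 8.45 RPKM at st10, a log2 change of 2.75 against st7 (standard error 0.19, limma adjusted p = 1.7e-07). Only its 2 samples of st10 reached 1 RPKM, so it passed the filter for testing through them alone. This rise and its p-value are therefore partly set by the choice. aug3.g5826, a family 52 riboflavin transporter member 3-A-like named here after its values were seen, had 0.481 and 0.87 RPKM at st4, 2.82 and 4.15 RPKM at st5 early and 7.19 and 9.89 RPKM at st7. aug3.g7511, family 15 member 1, was picked in the same way, and its human namesake takes up peptides from the gut. It was at 0.255 and 0.312 RPKM at st1, 1.8 and 1.33 RPKM at st2 and 3.25 and 4.64 RPKM at st10.

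aug3.g17821, family 13 member 5-like, was high at both ends of the series. It had 71.8 and 64.0 RPKM at st1, 11.8 and 0.366 RPKM at st3, 0.868 and 0.213 RPKM at st4, 2.43 and 2.17 RPKM at st7 and 22.4 and 16.2 RPKM at st10. At st10 it was above st7 by 2.61 on the log2 scale (standard error 0.69, limma adjusted p = 0.023). This rise was not called when any 1 of the st7 and st10 samples was left out, with changes of 2.39 to 2.82. aug3.g14580 carries the same gene ID on another scaffold and had 9.26 and 20.5 RPKM at st1, 0.108 and 0 RPKM at st4 and 3.65 and 2.25 RPKM at st10.

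Between st4 and st3, when the germ disc forms, 26 members were called, against 35.2% of all gene models. At st4 7 were higher (8.72% of all) and 19 lower (26.5% of all), and the median change was -0.48 for the members and -0.26 for all. With median-ratio scaling 27 were called, 11 higher and 16 lower, against 16.8% of all gene models higher and 21.0% lower. Without the st4 sample of series 1, 14 were called, against 27.1% of all. Among the maternal members 5 of 43 were higher and 15 lower, against 7.87% and 32.4% of all maternal gene models. Of the 11 later members 1 was higher and 2 were lower, against 16.0% and 6.64% of all later gene models. Families 25 and 35 each had 2 members higher, with 1 and 4 lower, and the organic anion transporters had none higher and 4 lower. aug3.g9116, family 22 member 8, whose human namesake carries organic anions in the kidney, had 0.0407 and 0.359 RPKM at st4, against 2.75 and 2.06 RPKM at st3 (log2 change -1.51, limma adjusted p = 5.1e-05). aug3.g20547 and aug3.g23399, both family 41 member 1-like, were not called, with log2 changes of -0.13 and 0.79. aug3.g14906, which carries the same gene ID and name, had 42.8 and 44.0 RPKM at st4, against 19.9 and 15.8 RPKM at st3. Its rise of 1.24 (limma adjusted p = 0.044) was lost in 20 of 29 alternatives.

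**Figure D5:**
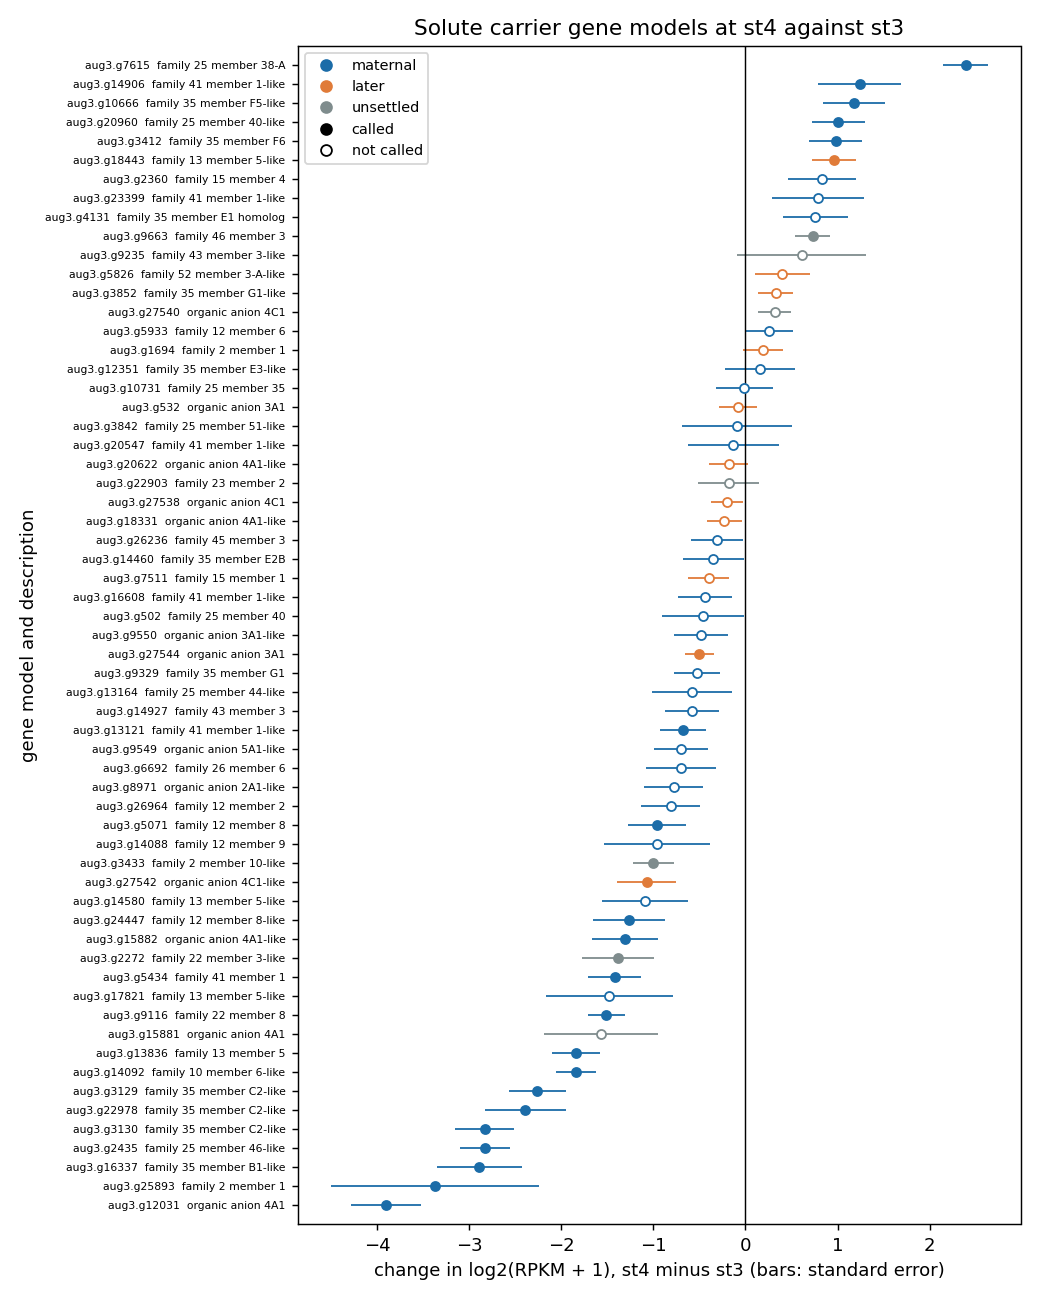
Change of each of the 61 tested members at st4 against st3, as the difference of log2(RPKM + 1) on the x axis with its standard error, coloured by class and filled where called by limma. Of the filled points 7 lie right of 0, led by aug3.g7615, and 19 lie left of it, led by aug3.g12031.

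Between st7 and st4, 17 members were called, against 28.5% of all, with 11 higher (17.7% of all) and 6 lower (10.9% of all) at st7, so the members' shares were near those of all gene models. With median-ratio scaling 11 were higher and 7 lower, against 16.3% and 15.8% of all. Without the st7 sample of series 1, 11 were called, against 16.9% of all. The organic anion transporters gave 7 of the 11 rises and none of the falls, and family 25 gave 3 of the 6 falls. aug3.g18331 and aug3.g20622, of 1 gene ID, were both among these 7. Between st10 and st7, 9 were called, against 10.3% of all, with 8 higher (6.48% of all) and 1 lower (3.84% of all) at st10. With median-ratio scaling 13 were called, 9 higher and 4 lower, against 7.14% and 4.18% of all. Without either or both of the st6 samples 14 were called, against 13.9% of all, 9 higher and 5 lower. Of the 43 maternal members 5 were higher and 4 lower at st7 than at st4, against 16.1% and 10.8% of all maternal gene models, and 2 were higher and 1 lower at st10 than at st7, against 3.02% and 3.9%. Of the 11 later members 6 were higher and 1 was lower at st7 than at st4, against 31.2% and 15.0% of all later gene models. At st10 against st7, 6 of the 11 were higher and 0 lower, against 25.4% and 5.12%. That class was chosen by detection after st1, so a rise within it is partly set by the choice. aug3.g18331 and aug3.g20622 were both among the 6 higher in each of these comparisons.

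In the fit with stage as a factor, 2 members differed between the series, against 10.5% of all gene models, with 1 higher (2.51% of all) and 1 lower (7.95% of all) in series 2. aug3.g9235, family 43 member 3-like, had 2.0 RPKM in series 2, against 0.0741 RPKM in series 1, at st4. At st8 it had 3.46 RPKM in series 2 and no read in series 1. In series 1 it never passed 0.213 RPKM, and the log2 difference was 0.93 (standard error 0.19, limma adjusted p = 0.0097). All 5 of its samples at 1 RPKM or more were of series 2. It thus passed the filter for testing only through the series where it was high, so this difference is partly set by the choice. aug3.g3842 was lower in series 2 by a log2 difference of -0.74 (standard error 0.19, limma adjusted p = 0.024), for example 1.35 RPKM in series 2, against 6.49 RPKM in series 1, at st3. Its call was lost in 10 of the alternatives. Without the st6 samples 4 members differed between the series, against 11.9% of all, and 1 did when any 1 sample of st3, st4, st5 late or st10 was left out.

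Members that neighbour each other on a scaffold were of 1 family. There were 12 such groups with 25 members, 9 of them on 1 strand, and 4 groups had at least 2 tested members, which peaked at 1 stage in 3 of the 4. In 2 of the 12 groups all members carry 1 gene ID, and aug3.g27542 and aug3.g27543 of another group share 1, so these may be pieces of 1 gene. Shared peaks of neighbours were not counted over all gene models. The neighbours aug3.g3129 and aug3.g3130 on the plus strand of scaffold 450 both peaked at st2. aug3.g9549, organic anion transporter member 5A1-like, lies on the opposite strand beside aug3.g9550 on scaffold 1036, from 637226 to 673453. It had 7.17 and 6.85 RPKM at st10, against 11.99 and 13.03 RPKM at st1, so this pair of neighbours peaked at opposite ends of the series. Of the 93 members, 31 share a gene ID with another member, and 4 IDs have at least 2 tested gene models. These gene models peaked at the same stage for 3 of the 4 IDs.

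Other transporters, 318 gene models named by their substrate and outside the rule, gave 164 that were tested. At st10 against st1, 37 were higher (22.6%, against 23.2% of all gene models) and 82 lower (50%, against 34.9%). At st4 against st3, 8 were higher (4.88%, against 8.72% of all) and 49 lower (29.9%, against 26.5%). At st7 against st4, 53 were higher (32.3%, against 17.7% of all) and 16 lower (9.76%, against 10.9%). The median change at st10 against st1 was -1.03 for the solute carriers and -0.76 for the other transporters. At st4 against st1 the order was the other way, with -1.03 for the solute carriers and -1.17 for the other transporters. Of the other transporters 16 were higher there (9.76%, against 20.3% of all gene models) and 93 lower (56.7%, against 39.6%). At st4 against st3 the medians were -0.48 and -0.49. The difference between the lists was not tested.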

How the data were processed

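Whole-embryo RNA-Seq at 10 stages in 2 series was used. After trimming, the authors used BLAT to place the reads on Ptep_1.0 and kept alignments that passed limits on coverage, identity and uniqueness. Reads on each AUGUSTUS gene model were then counted with htseq-count (HTSeq 0.6.1p1 in the submitters' processing notes), with regard to strand, and the authors deposited the abundance as RPKM. The uniqueness filter can lower the values of near-identical copies. The table has 20 value columns and 0 others. Coverage tracks were not used here.

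Members were matched on the description, ignoring case. The members and lists were chosen with earlier results of these data known. RPKM values are not counts, so log2(RPKM + 1) was fitted with limma 3.58.1 in R 4.3.3 (10 stage means, eBayes with trend, 10 residual degrees of freedom), for the 13375 gene models at 1 RPKM or more in at least 2 samples, with two-sided tests and Benjamini-Hochberg adjustment. For series 2 against series 1, the model held stage and series. The test was tried on simulated reads for st4 against st3, at a dispersion of 0.05, in which 200 of 10606 gene models had a log2 change of 2. It found 197 of these (98.5%) with the right sign and made 14 false calls. Only gene models with a mean of at least 2 RPKM were simulated, the unchanged ones were flat over the 10 stages, and no series effect was put in. In the real data 35.2% of gene models were called at st4 against st3. The share found therefore does not give the power of the test in the real data.

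Read totals and exon lengths were recovered from the RPKM values, since 1 read on a gene model without introns gives the total. Lengths were found for 21737 of 21765 gene models with reads, and 89 members, as whole reads within 0.01. A test on simulated reads with known totals first failed: the most frequent candidate was taken as the total, which returned 50% of the true total for 1 of the 20 samples. The largest repeated candidate is now taken, which returned 20 of 20 totals and 17301 of 17307 lengths. The totals of all 20 real samples were the same under both rules. The simulated reads were drawn from the recovered ones, so the test does not show that the real lengths are right.

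The members named were the 6 largest rises and 6 largest falls at st10 against st1, the 2 largest rises and falls in the other comparisons, the 5 highest means, the 3 largest transient peaks, the highest member of each family with at least 5, and those differing between the series, the changes being limited to those that were called and had 1 sign in the 2 series. Gene IDs were looked up in RefSeq's CAS_Ptep_4.0, where 85 members were listed, and no coordinate of it was used. Roles of human, yeast or vertebrate namesakes are background. The authors state that the 2 series came from 2 pairs of parents. The replicate number in the sample titles was taken to stand for the pair, and so pairs the samples across stages. Over the 45 pairs of stages the deviations of same-numbered samples had a median correlation of 0.24, from -0.06 to 0.7. Alternatives were median-ratio scaling, a pseudocount of 0.1, the replicate block, a minimum RPKM of 5 or none, only the 2 stages compared, detection limits of 0.5 and 5 RPKM, no stage term, and leaving out each sample or both st6 samples. As a further alternative, members that share a gene ID were counted once, without a new fit. Python 3.11.15, numpy 2.4.6, pandas 2.3.3 and matplotlib 3.10.9 were used.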

Additional observations from a re-analysis of the deposited data

How the results depend on the processing

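None of the 69 named changes that were called changed direction in an alternative. Few alternatives could have turned one, so this is weak evidence of stability. Every member called between stages had the same sign in both series, and many alternatives keep the same stage means. Median-ratio scaling turned the sign of some medians. Over all gene models it was 0.01 in place of -0.24 at st10 against st1, -0.02 in place of 0.1 at st7 against st4 and 0.02 in place of -0.09 between the series, and over the members it was 0.04 in place of -0.04 between the series. The counts of members called stayed within 1.5 times the main count with these exceptions. A minimum RPKM of 5 gave 17 at st4 against st3 and 1 for the difference between the series. No filter gave 14 at st10 against st7 and 1 between the series, where no stage term gave 1 as well. Without both st6 samples 14 were called at st10 against st7 and 4 between the series. A detection limit of 5 RPKM gave 7 later members. Leaving out 1 sample at a time, which assumes that the lone sample of a stage varies like the others, gave 51 to 58 members across the stages, 34 to 50 at st10 against st1, 37 to 47 at st4 against st1, 14 to 32 at st4 against st3, 11 to 20 at st7 against st4, 7 to 14 at st10 against st7 and 1 to 4 between the series. Leaving out 1 series gave 46 to 47 maternal and 14 later members. With the replicate block, which uses the pairing by parents, 58 members were called across the stages, 49 at st10 against st1, 46 at st4 against st1, 27 at st4 against st3, 19 at st7 against st4 and 13 at st10 against st7, and no named call was lost. Of the 69 named changes, 50 kept their call in all alternatives and 19 lost it in at least 1. The cause of these losses was not tested. The depth limits values below 3 reads.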
